A study of Mus musculus with 12 samples.

Results

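The Ifi200 family is a cluster of interferon-inducible mouse genes, and 10 of its members were described here among the 31053 gene rows of the expression tables: Ifi203, Ifi204, Ifi205, Ifi207, Ifi208, Ifi209, Ifi211, Ifi213, Mndal and Aim2. The cells came from breast tumors of female MMTV-PyMT mice on a C57BL/6 background, in which a mammary tumor virus promoter expresses polyoma middle T in mammary epithelium and tumors arise spontaneously. All mice carried this transgene, and no further treatment was given. One group was wild-type for the protease-activated receptor PAR2 (F2rl1), and the other carried the PAR2 G37I mutant, which resists signaling by the coagulation protease factor Xa. CD11c+ cells were bead-selected from late-stage tumors and CD4/CD8 T cells from mid-size tumors, with 3 samples of each genotype per selection and 12 samples in all, and the selected cells were frozen and thawed before droplet capture.

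Each selection was deposited as 1 matrix that pools its 6 samples, and the barcodes name no sample. The comparison of genotypes that the design implies was therefore not made, and no p-value is given. Within each matrix the barcodes run alphabetically and restart, which splits them into 6 runs, numbered here in file order. No run could be linked to a genotype, and run 1 of one matrix is not matched to run 1 of the other. The CD11c-selected matrix held 11980 barcodes, of which 11639 with at least 200 detected genes were kept (123642015 unique molecular identifiers, UMIs), and the CD4/CD8-selected matrix held 23101 barcodes, of which 22806 were kept (135965765 UMIs). Median depth per run was 6290 to 9286 UMIs per cell in 5 runs of CD11c-selected cells and 31162 in run 4, which held only 360 cells, and 3633 to 6525 in the CD4/CD8-selected runs. In the CD11c-selected matrix 76 barcodes and in the CD4/CD8-selected matrix 51 barcodes repeated an earlier one, and 92 occurred in both matrices. Intervals are exact 95% intervals, Poisson for levels and conditional binomial for ratios, and cover counting error only.

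Most Ifi200 proteins join an N-terminal pyrin domain, which binds other pyrin domains, to a C-terminal HIN domain, which binds DNA. Aim2 senses double-stranded DNA in the cytosol and recruits the adaptor Pycard (ASC) to activate caspase-1, forming an inflammasome that matures interleukin-1 family cytokines. Ifi204 (p204) is a DNA sensor that has been linked to signaling through STING, the adaptor that acts downstream of the cytosolic DNA sensor cGAS. Type I interferons induce many genes of the family through the transcription factor complex ISGF3, which binds interferon-stimulated response elements (ISREs) in promoters.

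In the GENCODE M21 annotation of GRCm38 (mm10), all 10 members are protein-coding genes between chr1:173350879-174031810, a stretch of 681 kb, with 3 on the plus strand (Aim2, Ifi209 and Ifi208) and 7 on the minus strand. Ifi208 lies at chr1:173673675-173698395, Ifi204 at chr1:173747293-173766943 and Ifi207 at chr1:173723427-173741747. The promoter windows of RefSeq (GRCm38.p6, 250 bases before to 50 after a transcription start) covered 9 of the 10 members, all but Ifi204. The core of the ISRE, read as GAAA, any 2 bases and GAAA on either strand, was found in at least 1 window of 7 of these 9 members, against 3.44% of all 32851 windows (3.99% of 27025 genes). No window of Aim2 or Ifi209 held it. The 7 stretches below, 30 bases each with the ISRE core in capitals and written 5′ to 3′ on the gene's strand, show how alike the matches are among the members.

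Ifi213: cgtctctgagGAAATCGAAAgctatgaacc
Ifi208: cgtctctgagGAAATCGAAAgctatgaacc
Mndal: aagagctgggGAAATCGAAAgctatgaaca
Ifi203: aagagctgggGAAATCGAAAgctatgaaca
Ifi207: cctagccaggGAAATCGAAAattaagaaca
Ifi211: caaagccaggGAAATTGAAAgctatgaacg
Ifi205: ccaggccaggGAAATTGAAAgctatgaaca

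These stretches lie on chromosome 1, at chr1:173599326-173599355 (minus strand) for Ifi213, chr1:173673597-173673626 (plus) for Ifi208, chr1:173880204-173880233 (minus) for Mndal, chr1:173942508-173942537 (minus) for Ifi203, chr1:173741831-173741860 (minus) for Ifi207, chr1:173913064-173913093 (minus) for Ifi211 and chr1:174031870-174031899 (minus) for Ifi205. Where a member had several matches (Ifi205 and Mndal), the one shown is the nearest upstream match of the first window that holds one. The match began 73, 58, 36, 35, 41, 37 and 134 bases before the annotated start, in that order. Ifi213 and Ifi208 shared all bases shown, and so did Mndal and Ifi203. The form GAAATCGAAA of the first 5 members shown was in 16 of 32851 windows in all, among them those of the family genes Ifi206 and Ifi214, and the form GAAATTGAAA of Ifi211 and Ifi205 was in 38. A match describes the sequence and does not show that the site is used.

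Because the members resemble each other, their counts are not fully separate. Among the last 500 bases of each annotated transcript, 59.4% of the 90-base stretches of Ifi211 and 29.7% of those of Ifi205 also occur in another gene of the cluster (each other), and 37.1% of those of Ifi209 occur in Ifi214. The share was 9.33% for Mndal, 7.87% for Ifi208 and 7.54% for Ifi213 (each with the other), 1.05% for Ifi203, and 0 for Ifi204, Ifi207 and Aim2. The annotated Mndal gene also overlaps Ifi211 and Ifi203 on the same strand. Reads from shared stretches can be dropped or assigned to another member, so levels are compared below between cells for 1 gene and not between genes.

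Cells were sorted into types by raw UMIs of marker genes that are not members of the family, and cells that met the gates of 2 types were left out. Macrophages had at least 10 UMIs of C1qa, C1qb and C1qc (6870 CD11c-selected and 922 CD4/CD8-selected cells), and CD8 T cells at least 1 UMI of Cd8a (15527 cells). Smaller gates took cDC1 (Xcr1 and Clec9a, 394 cells), cDC2 (Cd209a, 420), migratory dendritic cells (Fscn1, 181), monocytes (Ly6c2, 81), fibroblasts (Col1a1, Col3a1 and Dcn, 93 and 84 in the 2 matrices), tumor epithelial cells (Epcam, Krt8 and Krt18, 223 in each) and CD4 T cells (Cd4 without Cd8a or Foxp3, 580). The gates carried their defining markers. C1qa stood at 3994 UMIs per 1000000 UMIs of the gate (CPM) in CD11c-selected macrophages and 9.82 in CD8 cells, whereas Cd3e stood at 504 in CD8 cells, and Cd8b1, which was not used for the gate, at 743 there. Whether the C1qa in CD8 cells came from free RNA or from doublets was not tested.

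Ifi207 differed most between macrophages and CD8 cells. It reached 267 CPM (95% interval 263 to 271) in CD11c-selected macrophages and 190 (184 to 197) in the macrophages of the CD4/CD8-selected matrix, but 0.517 (0.377 to 0.692) in CD8 cells, a ratio within the CD4/CD8-selected matrix of 368 (274 to 506), and of 860 without run 3, which held 468 of these 922 macrophages. Per 100 UMIs of C1qa, macrophages held 3.36 UMIs of Ifi207 and CD8 cells 5.27. Where the few Ifi207 UMIs in CD8 cells came from was not tested. No Ifi207 UMI was found in the 580 CD4 cells, where 3 counts would correspond to 1.13 CPM.

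Ifi204 stood at 138 CPM (133 to 144) in CD4/CD8-selected macrophages and 8.22 (7.63 to 8.84) in CD8 cells, a ratio of 16.8 (15.5 to 18.3), and of 27.4 without run 3. Per 100 UMIs of C1qa there were 2.44 UMIs of Ifi204 in macrophages and 83.7 in CD8 cells, and 0.190 and 3.40 UMIs of Ifi205. Ifi211 was 6.64-fold higher (5.95 to 7.42) and Ifi205 32.3-fold higher (21.7 to 49.6) in macrophages than in CD8 cells. Ifi205 was higher in macrophages in 5 of 6 runs and the other 3 in 6 of 6. All 4 of these members, of 10 tested, were thus at least 4-fold higher in macrophages. The same held for 14.7% of the 9655 genes at 5 CPM or more in either gate. Ifi207 and Ifi205 passed the 5 CPM only through macrophages, so they could not enter this count without a difference.

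Of the 10 members tested, Mndal and Ifi208 were at least 4-fold higher in CD8 cells than in macrophages of the same matrix. This held for 9.9% of the 9655 genes. Ifi208 passed the 5 CPM only through CD8 cells, so it could not enter this count without a difference. Mndal stood at 311 CPM (308 to 315) in CD8 cells and 62.3 (58.5 to 66.3) in macrophages, a ratio of 5.0 (4.69 to 5.32). This call rests on run 3: without it Mndal stood at 93.3 CPM in macrophages and 292 in CD8 cells, a ratio of 3.13. Ifi208 stood at 19.9 CPM (19.0 to 20.8) against 0.733 (0.379 to 1.28), a ratio of 27.1 (15.5 to 52.6), and of 10.0 without run 3. Ifi203, Ifi213, Ifi209 and Aim2 were higher in CD8 cells by less than 4-fold, at 3.79, 3.27, 2.85 and 1.72. Without run 3 the ratio was 1.91 for Ifi203 and 1.87 for Ifi213, with macrophage levels of 101 rather than 55.0 CPM and 22.8 rather than 14.4. With 1 run left out in turn, the number of members at least 4-fold apart was 5 to 7, against 6 over all runs. Mndal lost the call without run 3, and Ifi203 reached it without run 2, 4, 5 or 6, at 4.04 to 4.37.

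The CD11c-selected matrix held 48 T cells (at least 3 UMIs of Cd3d, Cd3e and Cd3g), a small set of lymphoid cells from other libraries. Their Mndal stood at 272 CPM and Ifi203 at 149, with 3 UMIs of Ifi204, 2 of Ifi207 and none of Ifi205 or Ifi208, where 3 counts correspond to 11.2 CPM. Macrophages of the 2 matrices came from tumors of different stages, and their levels stand side by side without a comparison, such as 50.7 and 44.3 CPM for Ifi211 and 96.2 and 55.0 for Ifi203.

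Ifi205 was highest in fibroblasts and cDC1. Its level was 258 CPM (246 to 270) in cDC1, cells specialized in presenting cell-associated antigen to CD8 T cells, and 28.2 in cDC2, a ratio of 9.16 (7.73 to 10.9). Across the 6 runs the cDC1 level lay between 204 and 311 CPM and the cDC2 level between 10.9 and 37.6, so the 2 cell types did not overlap in any run. Ifi211 was also higher in cDC1 than in cDC2, by 4.27-fold (3.44 to 5.36), and Aim2 by 1.77-fold (1.43 to 2.21). Ifi211 and Ifi205 share transcript ends, so reads of one may be counted for the other.

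Fibroblasts combined high Ifi205 with few or no UMIs of Ifi208, Ifi209, Ifi213 and Aim2. Ifi205 stood at 514 CPM (477 to 554) in the CD11c-selected matrix and 560 (522 to 600) in the other, with Ifi203 at 373 and 374, Ifi204 at 278 and 352, and Mndal at 193 and 204. In the same fibroblasts no UMI of Ifi209 or Ifi208 was found in either matrix, where 3 counts would correspond to 2.21 and 2.10 CPM, and Aim2 had 0 and 4 UMIs. Ifi213 stood at 0.736 CPM in the CD11c-selected matrix. It made up 0.0462% of the summed member UMIs there and 0.118% in the other matrix. Fibroblast runs rested on few cells, and in the CD11c-selected matrix the Ifi205 level ranged from 40.3 CPM (run 5, 2 cells) to 746 (run 1, 18 cells).

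Migratory dendritic cells were low for most members but not for Ifi209, which stood at 152 CPM (134 to 171), near the monocyte level of 133, against 44.7 in cDC2, a ratio of 3.40 (2.84 to 4.06). Ifi203 went the other way, with 8.87 CPM in migratory cells and 79.3 in cDC2, and so did Ifi207, with 13.9 and 98.6. These values depend on the gate. When cells that also met another gate were kept, Ifi209 was 98.6 CPM and Ifi203 116, while Ifi205 moved from 5.54 to 124 and Ifi204 from 15.5 to 94.1.

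Monocytes had Ifi204 at 290 CPM (250 to 334), Ifi207 at 256 (218 to 298), and Ifi205 at 142 (114 to 174), the last 8.4-fold higher (6.72 to 10.4) than in macrophages. Among macrophages, those with at least 2 UMIs of Lyve1 and Cd209f (432 cells), genes of tissue-resident macrophages, had 678 CPM of Ifi207 (656 to 700). Those with at least 3 UMIs of Gpnmb (494 cells), a gene of lipid-laden macrophages, had 155 (148 to 162). Ifi203 differed alike, by 4.56-fold (4.16 to 5.0), whereas the ratio for Ifi209 was 0.97 (0.83 to 1.13), and Ifi205 was lower in the Lyve1 subset, 9.57 against 23.5 CPM.

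Tumor epithelial cells were low for every member. The highest level of a member there was 18.0 CPM (Ifi203, CD4/CD8-selected matrix), and all 10 together came to 35.4 CPM in the CD11c-selected and 52.6 in the CD4/CD8-selected matrix, against 820 in CD11c-selected macrophages. Within CD8 cells, Pdcd1 cells with Tcf7 and no Havcr2 (1701 cells, genes of the stem-like state) were set beside those with Havcr2 and no Tcf7 (487 cells, genes of terminally exhausted cells). Aim2 was lower in the Tcf7 cells in 6 of 6 runs, with a pooled ratio of 0.83 (0.70 to 0.98), and Mndal was higher in 6 of 6 runs. Ifi208 and Ifi213 were higher in the Tcf7 cells in 4 of 6 runs and Ifi203 in 3 of 6.

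**Figure D1:**
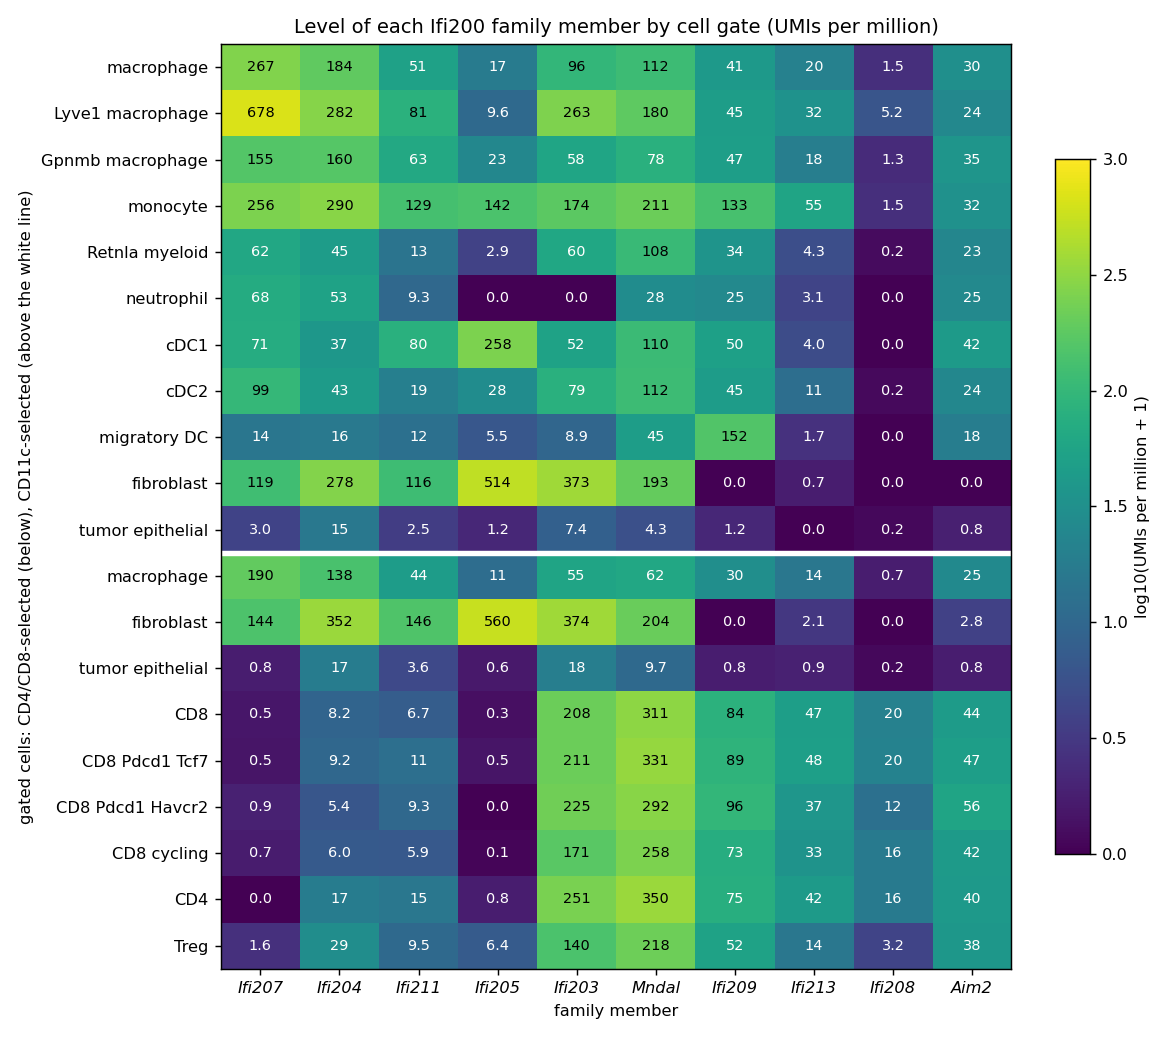
Level of each member (columns) in each cell gate (rows), printed in CPM and colored on a log10 scale, pooled over the 6 runs of a matrix. Ifi207 is at 267 in CD11c-selected macrophages and 0.5 in CD8 cells, Ifi205 is highest in fibroblasts and cDC1, and Ifi209 is at 152 in migratory dendritic cells. Colors should be read down a column, since genes are not compared with each other.

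The members were next compared between cells with and without signs of interferon exposure. A cell's interferon score was its summed UMIs of Ifit1, Ifit3 and Mx1, induced by type I interferon, and cells with 4 or more were set against cells with 0. Among CD8 cells 1207 had a score of 4 or more and 11634 a score of 0, with similar median depths of 5015 and 4611 UMIs. Members were counted when at least 2-fold higher in the high cells and higher in each of the 6 runs. Of the 8 members at 5 CPM or more in CD8 cells 7 met this rule, against 2.31% of the 8337 genes tested; Ifi205 and Ifi207, below 5 CPM, were not tested. Ifi204 and Ifi211 passed the 5 CPM only through cells with a score above 0, so they could not enter this count without a difference. With the 5 CPM asked of the cells with a score of 0 instead, 5 of 6 members met the rule, against 2.17% of 8330 genes. With no minimum level 7 of 10 did, against 1.31% of 18318 genes.

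Ifi204 differed most, from 0.955 CPM (0.731 to 1.23) at score 0 to 78.5 (72.3 to 85.1) at a score of 4 or more, a fold of 82.2 (63.1 to 109). It rested on 61 UMIs in all cells with a score of 0, and in the 6 runs its fold lay between 43.9 and 137. Ifi211 followed, from 1.89 to 50.9 CPM, 26.8-fold (21.8 to 33.2). Ifi208 was 8.0-fold higher (7.18 to 8.90), Ifi209 7.45-fold, Ifi213 6.64-fold, Ifi203 4.77-fold and Mndal 3.56-fold. The same count of 7 was found in CD8 cells with no UMI of Cd4, Foxp3 or the C1q genes. With each cell thinned to 2000 UMIs before the split, which left 563 high cells, the fold of Ifi204 was 101 and that of Ifi211 53.3.

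Aim2, the inflammasome-forming member, did not follow. Its level was 48.3 CPM (43.4 to 53.6) in high cells and 43.1 (41.5 to 44.8) in cells with a score of 0, a fold of 1.12 (1.00 to 1.25), and it was higher in 4 of 6 runs. Ifi205 (6 and 23 UMIs) and Ifi207 (9 and 24 UMIs) stayed near the floor in both kinds of CD8 cell, at no more than 1.21 CPM.

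In CD11c-selected macrophages 361 cells had a score of 4 or more and 5387 a score of 0. The high cells were deeper here, with median UMIs of 13796 and 7903. Of the 9 members tested 7 met the rule, against 1.77% of the 8702 genes tested, the exceptions being Ifi207 and Aim2. All 9 also had 5 CPM in the cells with a score of 0, where the background was 1.67% of 8677 genes. With no minimum level 7 of 10 members met the rule, against 1.17% of 18538 genes. Ifi205 differed most, from 9.25 to 82.3 CPM, 8.89-fold (7.84 to 10.1), followed by Ifi209 at 7.18-fold, Ifi211 at 6.85-fold, Ifi213 at 6.62-fold, Ifi203 at 4.55-fold, Ifi204 at 3.97-fold and Mndal at 3.70-fold.

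Ifi207, the member that separated macrophages from T cells most, was 1.83-fold higher (1.76 to 1.91), from 239 to 439 CPM, and higher in 6 of 6 runs. Aim2 was 1.43-fold higher (1.25 to 1.64), from 28.5 to 40.9 CPM, also in 6 of 6 runs. Ifi208 lay below 5 CPM in macrophages and was not tested, with 62 UMIs (10.0 CPM) in high cells and 27 (0.50 CPM) in cells with a score of 0. With each macrophage thinned to 2000 UMIs before the split, which left 66 high cells and dropped 774 shallower ones, the folds were 2.21 for Ifi207 and 1.98 for Aim2, and 8 members met the rule. The share of all genes that met the rule after thinning is not given here.

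Ifi204 had very different starting points in the 2 cell types, which here came from different matrices and tumor stages. Cells with a score of 0 held 132 CPM of Ifi204 in macrophages and 0.955 in CD8 cells, and cells with a high score 524 and 78.5. For Mndal the starting points were 82.9 and 237 CPM and the levels in high cells 307 and 842, so its fold was nearly the same in both.

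The levels of Ifi204 and Mndal were higher in each successive bin of the score. In CD8 cells Ifi204 passed from 0.955 CPM at a score of 0 through 2.68 at 1, 7.97 at 2 to 3, 39.1 at 4 to 7 and 89.7 at 8 to 15 to 139 at 16 or more. Mndal passed through 237, 313, 457, 674, 912 and 1063 CPM over the same bins. Aim2 lay between 41.0 and 48.7 CPM in the first 5 bins and stood at 62.0 (50.5 to 75.4) in the last, which held 238 cells.

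**Figure D2:**
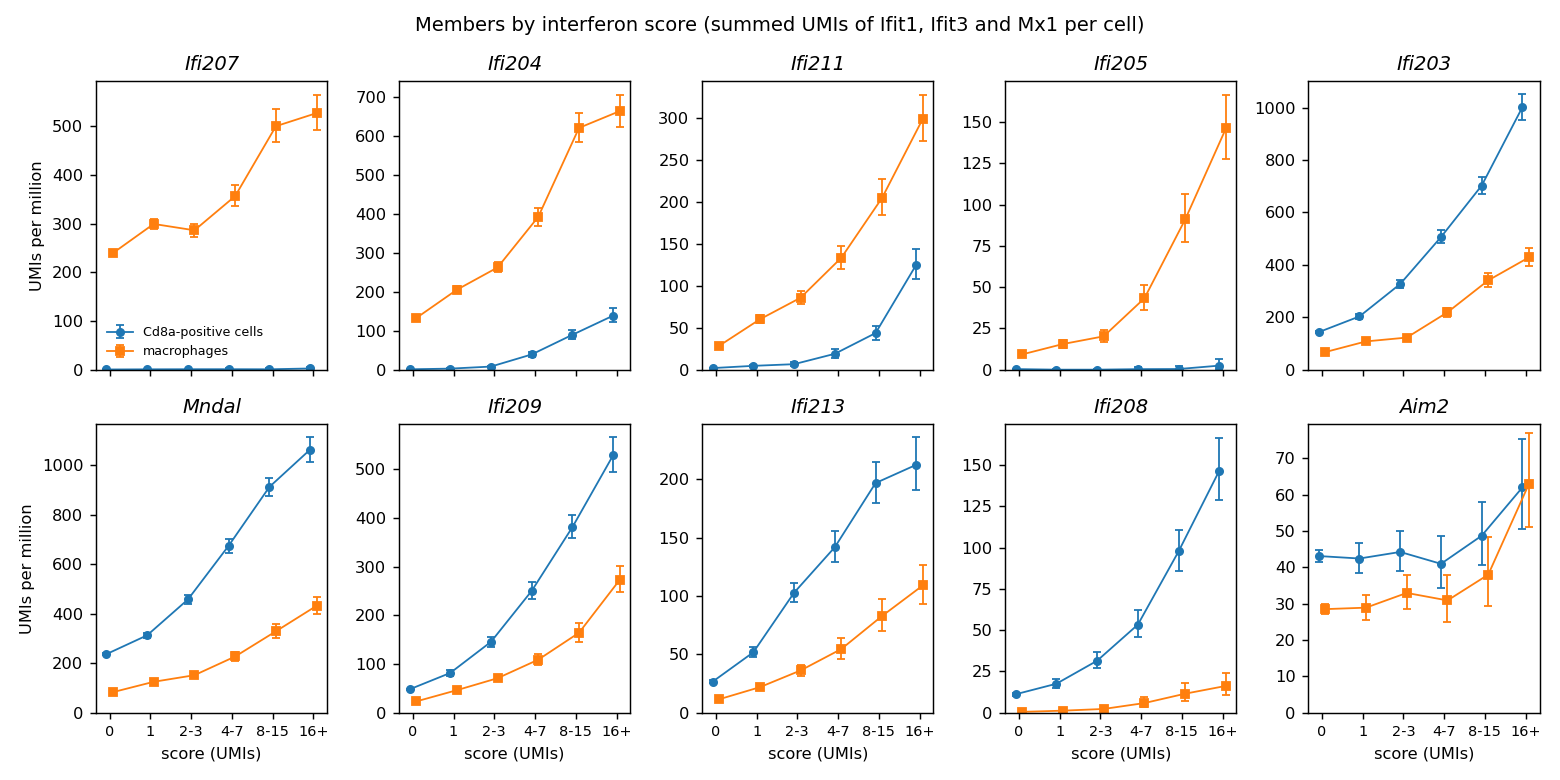
Level of each member in CPM (vertical axes, linear, from 0) by interferon score (horizontal axis, summed UMIs of Ifit1, Ifit3 and Mx1 per cell) in CD8 cells (blue circles) and CD11c-selected macrophages (orange squares). Bars are 95% Poisson intervals of the pooled counts. Ifi204 in CD8 cells starts at 0.955 and ends at 139, while Aim2 stays between 41.0 and 48.7 in CD8 cells up to a score of 15.

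The 580 CD4 cells held 34 high cells, and 4 runs had both kinds. Run 1 held 374 of the CD4 cells, whereas runs 2 and 3 held only 16 and 22. The high cells made up 6.25% and 4.55% of runs 2 and 3, so the run counts below turn on very few high cells. Ifi203 was 5.92-fold higher (4.88 to 7.14), Mndal 3.90-fold (3.26 to 4.64), Ifi209 10.4-fold (7.44 to 14.5) and Ifi213 10.4-fold (6.64 to 16.2), each in 4 of 4 runs. Ifi204 had 29 UMIs in high cells and 6 in cells with a score of 0, a fold of 70.8 (28.9 to 208), but was higher in 3 of 4 runs and so did not meet the rule. Ifi211 (11.9-fold, 5.87 to 23.6) was higher in 3 of 4 runs and Ifi208 (10.5-fold, 5.02 to 21.3) in 2 of 4, so neither met it, and Aim2 had only 7 UMIs in the high cells, a fold of 1.23 (0.48 to 2.66).

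Within Pdcd1 Tcf7 cells, the fold of Ifi204 was 99.1 (44.0 to 276; 102 and 6 UMIs), that of Ifi208 was 5.60 (4.19 to 7.48), both higher in 6 of 6 runs, and that of Aim2 was 1.09 (0.84 to 1.40). In Pdcd1 Havcr2 cells Ifi204 had 16 UMIs in high cells and 1 in cells with a score of 0, a fold of 112 (17.5 to 4714), higher in 4 of 5 runs and so short of the rule.

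Beside other interferon-responsive genes, the members ranged widely. In CD8 cells the 25 tested genes of an interferon-induced list (among them Isg15 and Rsad2) all met the rule, with a median fold of 7.28 and a range from 2.97 (Ifi27l2a) to 56.6 (Ifit3b), beside a median of 0.939 over all genes tested. Ifi204 at 82.2-fold lay above every gene of that list, with an interval that overlapped that of Ifit3b (45.6 to 70.9). Ifi204 and Ifit3b both lay below 5 CPM in cells with a score of 0. They passed the minimum level only through cells with a score above 0, so neither could enter this comparison without a difference. The rank of Ifi204 is therefore a description only. Of an interferon gamma-leaning list 10 of 11 tested genes met the rule (median 4.75), Irf1 at 1.39-fold being the exception. The family genes Ifi206 and Ifi214, outside the 10 members, were 8.77- and 10.2-fold higher.

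In macrophages 25 of 26 tested genes of the interferon-induced list met the rule (median 5.6), all but Ifi27l2a at 1.51-fold, and the 9 members had a median of 4.55, beside 0.968 over all genes tested. The interferon gamma-leaning list had 10 of 13 (median 4.34). Genes of DNA sensing and the inflammasome had small folds, with a median of 1.48 in CD8 cells and 1.08 in macrophages. Of 9 tested genes of a sensing and inflammasome list in CD8 cells, 3 met the rule: Zbp1, a sensor of Z-form nucleic acids, at 8.54-fold, Casp1, the inflammasome protease, at 2.50-fold and Casp8 at 2.06-fold. Pycard, the adaptor of Aim2, stood at 0.96-fold (0.90 to 1.02) and Tmem173, the gene of STING, at 1.02-fold (0.87 to 1.18). In macrophages Zbp1 alone of 12 met the rule, at 4.33-fold, and Casp1 stood at 1.52-fold.

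The last comparison was among the 6 runs of each matrix. In CD8 cells 3 members of 8 tested, Ifi204, Ifi211 and Ifi208, were at least 4-fold apart between the lowest and the highest run, against 1.41% of 8340 genes. In CD11c-selected macrophages no member of the 9 tested was, against 1.36% of 8705 genes. The closest was Ifi205, which ranged 3.97-fold, from 5.45 CPM in run 4, the run with the fewest and deepest cells, to 21.6 in run 1.

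Ifi204 and Ifi211 had the same lowest and highest run. In CD8 cells Ifi204 had a lowest run of 1.58 CPM (run 5), a median of 6.71 and a highest run of 22.3 (run 3), and Ifi211 had 2.37 (run 5), 5.47 and 15.2 (run 3). The share of CD8 cells with a score of 4 or more was lowest in run 5 (3.52%) and highest in run 3 (16.2%) as well, and its part in the run differences was not tested. Without run 3 the values of Ifi211 lay between 2.37 and 7.41 CPM, and 2 members were at least 4-fold apart. Among CD8 cells with a score of 0 the range of Ifi211 was 0.660 to 3.18 CPM and that of Ifi204 0.316 to 2.49 CPM, both below 5 CPM.

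Ifi208 had other runs at its ends. Its CD8 level was 6.25, 6.40, 10.9, 36.3, 24.7 and 33.7 CPM in runs 1 to 6 (104, 91, 135, 387, 281 and 732 UMIs). Run 1 was the lowest (interval 5.11 to 7.57) and run 4 the highest (32.8 to 40.1). Thinned to 2000 UMIs per cell, the share of CD8 cells with an Ifi208 UMI was 0.987%, 1.10%, 1.88%, 6.78%, 5.30% and 5.87%, and without thinning 2.81%, 4.18%, 4.53%, 13.4%, 9.84% and 14.3%. In tumor epithelial cells, with a median of 20285 UMIs against 4686 in CD8 cells, 1 of 223 cells (0.448%) held an Ifi208 UMI and after thinning 0 of 218.

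Ifi208 differed between runs at either end of the interferon score. Within CD8 cells with a score of 0, Ifi208 stood at 2.92, 4.08, 3.04, 20.3, 14.7 and 19.4 CPM in runs 1 to 6, a 6.95-fold range. Within cells with a score of 4 or more it stood at 29.7, 32.2, 43.3, 171, 190 and 163 CPM. Its fold between high and 0 was 7.88 to 14.3 in the 6 runs.

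The CD8 states gave the runs in a similar order. Pdcd1 Tcf7 cells had 4.08, 7.58, 10.1, 33.1, 23.1 and 33.5 CPM of Ifi208 in runs 1 to 6. In Pdcd1 Havcr2 cells, with 2 to 15 UMIs per run, the levels were 5.94, 2.65, 2.88, 28.6, 27.7 and 14.1.

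In CD11c-selected macrophages Ifi208 was scarce and uneven between runs. The 6 runs held 0, 1, 2, 24, 49 and 39 UMIs, or 0, 0.067, 0.187, 2.62, 2.71 and 2.83 CPM. All 62 Ifi208 UMIs in interferon-high macrophages came from runs 4, 5 and 6 (8, 26 and 28 UMIs). At 1.51 CPM over all macrophages, Ifi208 fell below the 5 CPM needed to enter the count above.

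Of all members Aim2 was the most even, at 38.2 to 48.0 CPM in CD8 cells (1.26-fold) and 25.1 to 33.1 in macrophages (1.32-fold). Ifi213, whose shown promoter stretch is the same as that of Ifi208, had 48.2, 32.2, 74.5, 55.3, 34.3 and 43.5 CPM in the CD8 runs and was highest in run 3. Mndal ranged from 258 to 427 CPM and Ifi203 from 163 to 306 in CD8 cells, both with run 3 highest.

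Ifi208 was the only member at least 4-fold apart between runs in both matrices when the minimum level was dropped. The share of all genes that meet this is not given here. In macrophages the lowest run of Ifi208 held 0 UMIs and entered at 3, and Ifi205 fell just short there at 3.97-fold. Over the 12 run values (6 CD8 and 6 macrophage runs, log2 of CPM plus 1, centered on each matrix), the genes most like it among 7366 were Tbc1d1, Pygl, Socs6, Enpp1 and Mrpl38, with Pearson r of 0.87, 0.81, 0.81, 0.80 and 0.79. These values share their libraries and depth with Ifi208, so r is a description only. The likeness was in order and not in size, since Tbc1d1 ranged only from 42.3 to 53.5 CPM in CD8 cells. Mid1, an interferon-inducible ubiquitin ligase gene that the study names beside Ifi208, had r of 0.77 and a much wider range, with 3.55, 7.31, 1.54, 42.5, 22.0 and 27.3 CPM in the CD8 runs and 23.5, 27.0, 0.748, 207, 106 and 158 in the macrophage runs. Mid1 was higher in interferon-high CD8 cells in 3 of 6 runs and Ifi208 in 6 of 6. Pooled over the runs, Mid1 was lower in high cells, at 0.74-fold (0.60 to 0.91) in CD8 cells. In macrophages it stood at 0.60-fold (0.54 to 0.67) and was higher in 1 of 6 runs. CD8 run 3, the lowest for Mid1, had the highest share of high cells, and its part in the pooled fold was not tested.

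**Figure D3:**
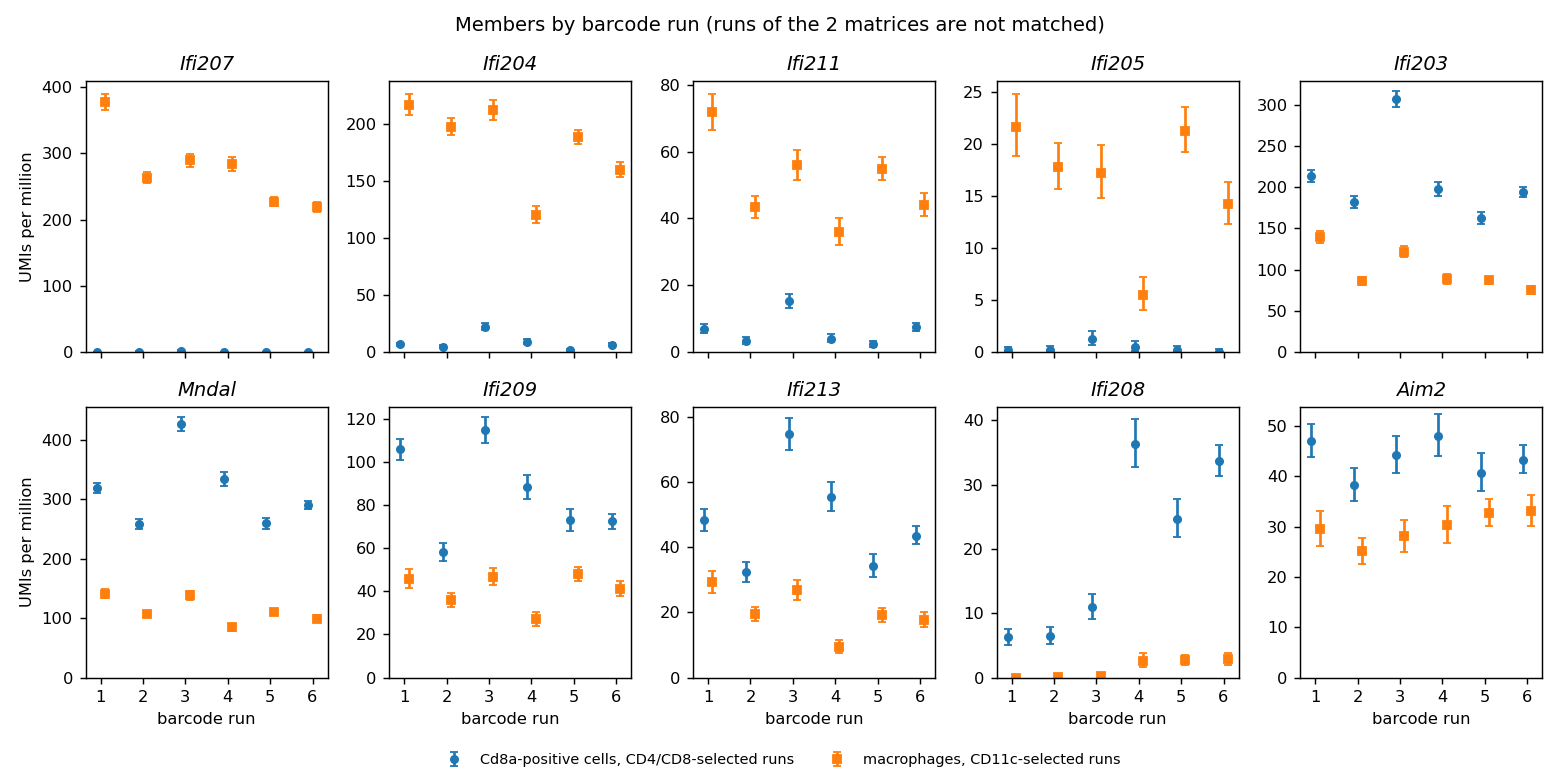
Level of each member in CPM (vertical axes, linear, from 0) in the 6 barcode runs of CD8 cells (blue circles) and of CD11c-selected macrophages (orange squares), with 95% Poisson intervals. Ifi208 in CD8 cells goes from 6.25 in run 1 to 36.3 in run 4, while Aim2 stays between 38.2 and 48.0.

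**Figure D4:**
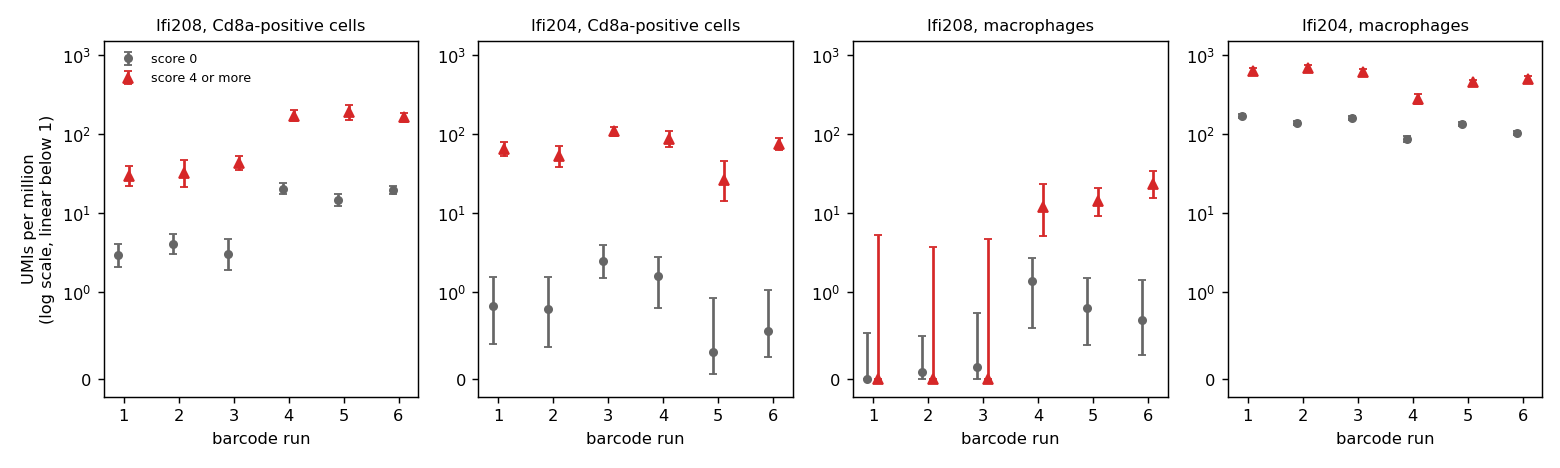
Ifi208 and Ifi204 in CPM (log scale, linear below 1) by barcode run in cells with an interferon score of 0 (gray circles) and of 4 or more (red triangles), with 95% Poisson intervals, for CD8 cells and CD11c-selected macrophages. In CD8 cells with a score of 0 Ifi208 is lowest in run 1 (2.92) and highest in run 4 (20.3), and Ifi204 is lowest in run 5 (0.316) and highest in run 3 (2.49).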

How the data were processed

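Single-cell libraries were made from 12 samples on the 10x Genomics platform. Per the labels, the submitters' processing notes name Cell Ranger 3.0.2 and the genome build mm10. For the counting annotation and reads with several matches, the treatment is not given in the sources used here. The authors deposited raw UMI counts, 1 matrix per selection with all 6 samples pooled, so each matrix was treated as 1 sample, with no test and no count model. The columns of per-sample values not used numbered 0.

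Barcodes with fewer than 200 detected genes were left out. No doublet caller was run, and 439 CD11c-selected and 280 CD4/CD8-selected cells meeting gates of 2 types were left out, while 2486 and 5049 met none. Gates used raw UMIs: macrophages, at least 10 of C1qa, C1qb and C1qc. CD8 cells had at least 1 of Cd8a, cDC1 at least 3 of Xcr1 and Clec9a, and migratory cells at least 3 of Fscn1. cDC2 needed at least 3 of Cd209a and monocytes at least 3 of Ly6c2, both with fewer than 10 of C1q. Fibroblasts and tumor cells needed at least 15 of their markers, and CD4 cells at least 3 UMIs of Cd3d, Cd3e and Cd3g. Since the gates were set on raw UMIs, deeper cells entered more readily. Levels are summed UMIs per 1000000 (CPM) with exact 95% Poisson intervals. Ratios have exact conditional intervals, and shares have Clopper-Pearson intervals. A run under 3 UMIs entered run ratios at 3.

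Across genes, members were counted at 5 CPM or more in the gate, by a 2-fold (interferon), 4-fold (runs) or 4-fold (cell type) difference. Ifit1, Ifit3 and Mx1 were left out of the interferon counts. Named genes were the 10 members, the other family genes, 3 lists (interferon-induced, interferon gamma-leaning, sensing and inflammasome), Mid1 and Klra17, and the 5 genes most like a member that differed between runs in both matrices. The members and lists were chosen with earlier results of these data known. Klra17 had 0 and 2 UMIs in interferon-high CD8 cells and those with a score of 0 and stood at 0.75-fold in interferon-high macrophages. Some items are not reported here. The calls were tested on simulated data. Alternatives covered the score, its minimum, thinning, the fold, the minimum level, the gates and each run left out. Python 3.11.15 with numpy 2.4.6, scipy 1.17.1 and pandas 2.3.3 was used.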

Additional observations from a re-analysis of the deposited data

How the results depend on the processing

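The 7 members higher in interferon-high CD8 cells were 7 under every alternative planned (a score minimum of 2 or 8, a score from Isg15, Rsad2 and Usp18, thinning to 2000 UMIs, the mean over cells, 1.5- or 3-fold, no minimum level, CD8 cells without Cd4, Foxp3 or C1q UMIs) and with each run left out (7 to 7), and 5 with the minimum level asked of cells with a score of 0 (chosen after seeing the data). In macrophages the count was 7 to 8 under alternatives chosen after seeing the data, and 7 to 7 with each run left out. Members at least 4-fold apart between runs in CD8 cells, 3 in the report, were 4 at 2-fold, 1 at 8-fold, 5 with no minimum level, 0 at a minimum of 20 CPM and 1 among cells with a score of 0 (an alternative chosen after seeing the data), and 2 to 3 with each run left out. In macrophages the count of 0 became 2 at 2-fold, 1 with no minimum level and 2 among cells with a score of 0, and was 0 to 0 with each run left out. The shares of all genes under these other run settings are not given here, so these counts cannot be set against a background. Members at least 4-fold apart between macrophages and CD8 cells, 6 in the report, were 6 under each of 4 alternatives and 5 to 7 with each run left out (5 without run 3, where Mndal lost the call). Of 228 member levels recomputed under processing alternatives, 8 moved by over 1.5 times, all when cells meeting 2 gates were kept and 7 of them in migratory dendritic cells. No paired analysis was possible because the barcodes name no sample. Depth limits Ifi208 in dendritic cells and fibroblasts, where 3 counts correspond to 0.446 CPM in cDC1 and 2.21 in CD11c-selected fibroblasts.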

Other observations

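Ifi202b, a family gene outside the 10 members whose product lacks the pyrin domain, was found mainly in tumor epithelial cells. Its level there was 17.4 CPM in the CD11c-selected and 26.1 in the CD4/CD8-selected matrix, against 0.971 in CD11c-selected macrophages and 0.023 in CD8 cells (2 UMIs). The tumor cells of the runs were far apart. In the CD11c-selected runs 1 to 6 the Ifi202b levels were 0, 78.6, 4.51, 0, 0 and 49.0 CPM over 34, 30, 100, 5, 11 and 43 tumor cells. In the CD4/CD8-selected runs they were 69.7, 21.0, 0, 38.8, 0 and 67.3 CPM over 26, 19, 60, 63, 35 and 20 tumor cells. Tumor cells of the CD4/CD8-selected runs also differed in Ifi203, with 51.0, 4.20, 2.69, 23.8, 1.35 and 51.0 CPM (1 to 52 UMIs a run).

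The Ifi208 values of the runs formed separate clusters. In CD8 cells they were 6.25, 6.40 and 10.9 CPM in runs 1, 2 and 3, with no interval above 12.9, and 36.3, 24.7 and 33.7 in runs 4, 5 and 6, with no interval below 21.9. In CD11c-selected macrophages they were 0, 0.067 and 0.187 CPM in runs 1, 2 and 3, with no interval above 0.676, and 2.62, 2.71 and 2.83 in runs 4, 5 and 6, with no interval below 1.68. This division of the runs was read from the Ifi208 values themselves, so that Ifi208 shows it is no separate result. No other member of the 10 had intervals that split runs 1 to 3 from 4 to 6 in either cell type. The share of all genes that do so is not given here. By value, Aim2 in macrophages had the same order, with 29.5, 25.1, 28.1, 30.3, 32.7 and 33.1 CPM, and Ifi204 and Ifi213 in macrophages the opposite order, with overlapping intervals. Mid1 also split these runs, with values given beside those of Ifi208. The labels do not say what sets these runs apart, and the 2 matrices' runs are not matched to each other. The division describes the values only: counts were not pooled by it, and it was not linked to genotype.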
